A study of Homo sapiens with 2 samples.

Results

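The 10 genes described here encode tetraspanins of leukocytes: CD9, CD37, CD53, CD63, CD81, CD82, CD151, TSPAN3, TSPAN4 and TSPAN31. They were chosen by name, and all 22 probe sets that the platform annotation assigns to them were taken, out of 54675 probe sets and 19775 named genes on the array. The cells were 2 subclones of HMC1, an established human line from a mast cell leukaemia known to carry activating KIT mutations. Both came from the same line by fluorescence-activated sorting with an anti-CD2 antibody, 1 carrying CD2 at its surface (CD2-positive) and 1 lacking it (CD2-negative). No other treatment is named, and the sources used here do not say whether a subclone descended from a single cell or which HMC1 subline was sorted. RNA of each subclone was hybridised to 1 Affymetrix U133 Plus 2.0 array, so n = 1 per group, no difference carries an error between cultures, and no test between the subclones was possible.

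Tetraspanins are small proteins that cross the membrane several times and expose a short and a long loop outside the cell. They bind each other and partner proteins such as integrins, immunoglobulin-type receptors and proteases, and so arrange them into membrane microdomains. Palmitate attached to their cytoplasmic cysteines helps to hold these assemblies together. In mast cells CD63 lies in the membrane of secretory granules and lysosomes, appears at the surface on degranulation and is used as an activation marker there, while CD9, CD53, CD81 and CD151 are found mainly at the cell surface.

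The values are probe-set intensities on a linear scale, and each difference is the log2 intensity of the CD2-positive minus that of the CD2-negative array. CD2 itself read 219 and 13, a 16.8-fold difference in the direction of the labels. All 7 measured mast cell markers lay above the floor of 64 (log2 of 6). A gene had to reach this floor on at least 1 array to be compared. All 7 markers read higher on the CD2-positive array, beside 41.9% of all genes compared. Some were nearly equal, with KIT at 1373 against 1328 and GATA2 at 181 against 164. The largest differences were those of CPA3, at 1220 against 207, and HPGDS, at 187 against 80. Markers of T and NK cells, B cells and monocytes summed to between 10 and 26 per list on either array, with no gene above 7. Of 5 platelet and megakaryocyte markers, looked at because platelets are rich in CD9 and CD63, ITGA2B read 88 and 106 and the other 4 together 17 and 14. The parts of the higher mast cell markers and of ITGA2B in the tetraspanin values were not tested. Summed intensities were 1860969 (CD2-positive) and 1875750 (CD2-negative), probe sets for Bacillus transcripts absent from human RNA read 1 to 4, and the hybridisation controls, 18 probe sets for spiked bacterial and phage RNA, were all dimmer with the CD2-positive sample (median difference -0.18 on the log2 scale).

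Tetraspanin transcripts read slightly higher in the CD2-positive subclone, and none reached a 2-fold difference. The 7 members above the floor were CD9, CD37, CD53, CD63, CD81, CD82 and TSPAN4. All 7 had a positive difference, between 1.07-fold for CD9 and 1.33-fold for CD81, with a median log2 difference of 0.29. Over the 3564 genes compared, 1.96% were at least 2-fold apart (1.21% higher and 0.758% lower in the CD2-positive subclone), 8.0% at least 1.5-fold, and 41.9% had a positive difference, with a median of -0.05. No tetraspanin reached 1.5-fold either, except CD81 (0.60) and CD151 (0.61) when values were centred on the hybridisation controls. That scaling adds 0.18 to every log2 difference and makes 69.2% of the genes compared positive. Because this shift is the same for every gene, the median of the 7 members necessarily stayed 0.34 above that of the genes compared. Within the range of mean level that the 7 members span, 2615 genes had a median of -0.04 and 42.2% were positive. The other 3 members, CD151, TSPAN3 and TSPAN31, lay below the floor but above the Bacillus probe sets, and with them 9 of 10 differences were positive and 1 was negative.

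**Figure D1:**
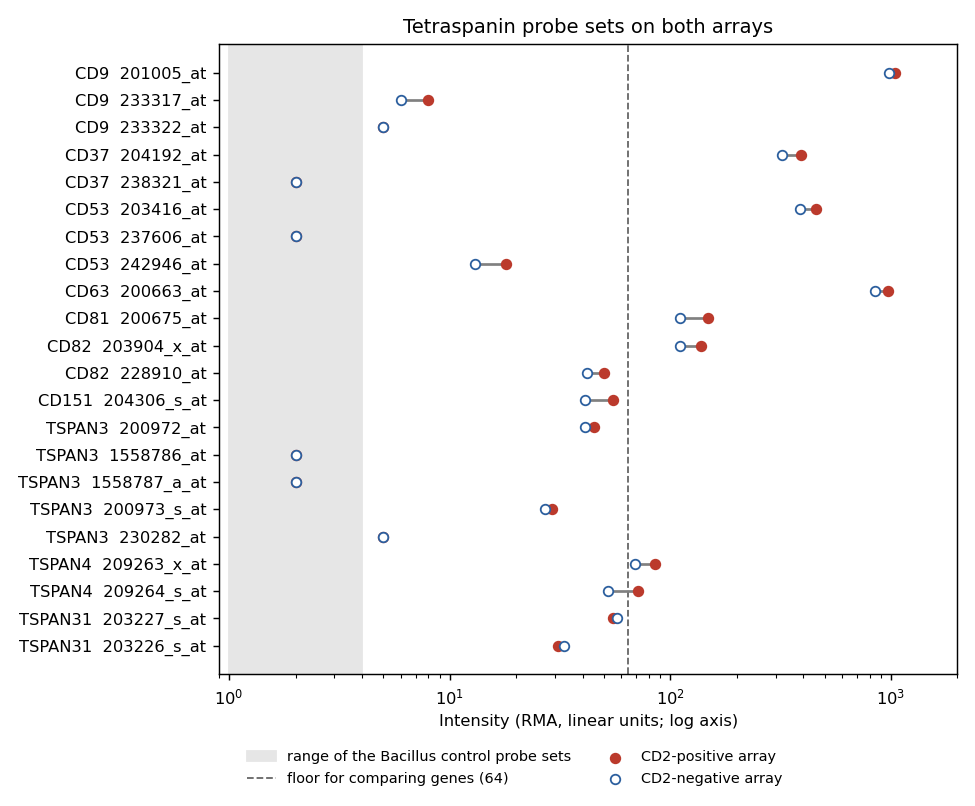
Intensity of each of the 22 tetraspanin probe sets (log axis) on the CD2-positive array (filled red) and the CD2-negative array (open blue), 1 array each; where both read the same, the points coincide. The brightest probe set of each gene lies above the grey range of the Bacillus controls (1 to 4), and the paired points lie close together in every row.

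The size of these differences was read against 2 limits that the arrays themselves give. The deposited intensities are whole numbers, so rounding leaves each difference uncertain by an amount that is small for bright and large for dim probe sets. In addition, probe sets of 1 gene do not agree exactly: over 937 genes with at least 2 probe sets above the floor, the spread of a single probe set's log2 difference was 0.13 (SD). This spread covers probe behaviour and not variation between cultures or hybridisations. Of the 10 members, 8 lay farther from 0 than 1 such spread and 5 farther than 2 spreads (0.25), namely CD37, CD81, CD82, CD151 and TSPAN4. Such distances were common among the genes compared. At least as far from 0 as TSPAN3, the nearest to 0 of the 8, lay 63.4% of them, and 32.1% as far as CD37, the nearest of the 5. The spread was taken from probe sets above the floor, and CD151, TSPAN3 and TSPAN31 lay below that floor.

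CD63, the granule and lysosome tetraspanin, read 973 on the CD2-positive and 846 on the CD2-negative array, a 1.15-fold difference (log2 0.20). It has a single probe set, so no other probe set bears on that value, and rounding allows 0.20 at either limit. Of the genes compared, 48.1% lay at least as far from 0 as CD63.

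CD9, which joins integrins and immunoglobulin-type partners at the surface, read 1046 and 980, a log2 difference of 0.09 and the smallest among members above the floor. Its other 2 probe sets were dim, at 8 against 6 and at 5 on both arrays. For these probe sets rounding alone allows log2 differences from 0.21 to 0.63 and from -0.29 to 0.29, respectively. The CD9 value lay within 1 spread of a probe set as deposited, and outside it with a lowess correction on mean level (0.15). The mean of its 3 probe sets was 0.17. That mean includes the 2 dim probe sets, and the spread, taken from single probe sets above the floor, is no limit for it.

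CD53 and CD37 are tetraspanins found almost only in blood cells. CD53 read 456 and 385, a log2 difference of 0.24. A dimmer CD53 probe set read 18 and 13 (0.47, with rounding limits of 0.37 and 0.57), and its last one read 2 on both arrays, at the Bacillus level. CD37, known as a surface protein of B cells, read 392 and 320, a log2 difference of 0.29, while its other probe set read 2 on both arrays. The B cell markers measured beside it read at most 7.

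CD81, a part of the B cell co-receptor and a surface protein that antibodies use to dampen IgE-triggered degranulation in mast cells, read 148 and 111. This log2 difference of 0.42 was the largest among the 7 members above the floor, and 18.4% of the genes compared lay at least as far from 0. CD82, first known as a metastasis suppressor, read 138 and 110 with an _x probe set, whose probes can also match other transcripts (0.33). A CD82 probe set with a plain identifier read 50 and 42, a log2 difference of 0.25 with rounding limits of 0.22 and 0.28. The 2 CD82 probe sets therefore lay 1 way and less than 1 spread apart.

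TSPAN4, a tetraspanin abundant in migrasomes, the vesicles that migrating cells leave on their retraction fibres, was the only member for which 2 probe sets reached the floor. They read 85 against 69 (0.30) and 71 against 52 (0.45). Both identifiers carry a suffix (_x and _s) for probes that are not unique to 1 transcript. CD151, which binds laminin-binding integrins and steadies cell adhesion, read 55 and 41 with its single probe set, below the floor and also with the _s suffix. Its log2 difference of 0.42, with rounding limits of 0.39 and 0.45, overlapped that of CD81 within these limits.

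TSPAN3 and TSPAN31 read nearly the same in both subclones. TSPAN3, a widely expressed tetraspanin, read 45 and 41 (0.13) and, with another probe set that carries the _s suffix, 29 and 27 (0.10). Its other 3 probe sets read 5, 2 and 2, each with equal values on both arrays, and the mean over all 5 was 0.05. TSPAN31, formerly SAS and the neighbour of the cell cycle kinase gene CDK4, was the only member with a negative difference, at 55 against 57 (-0.05). Its other probe set read 31 and 33 (-0.09), with the same sign and also within 1 spread. Both TSPAN31 probe sets carry the _s suffix. When centred on the hybridisation controls the difference of TSPAN31 became 0.13, so its sign depends on the scaling.

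**Figure D2:**
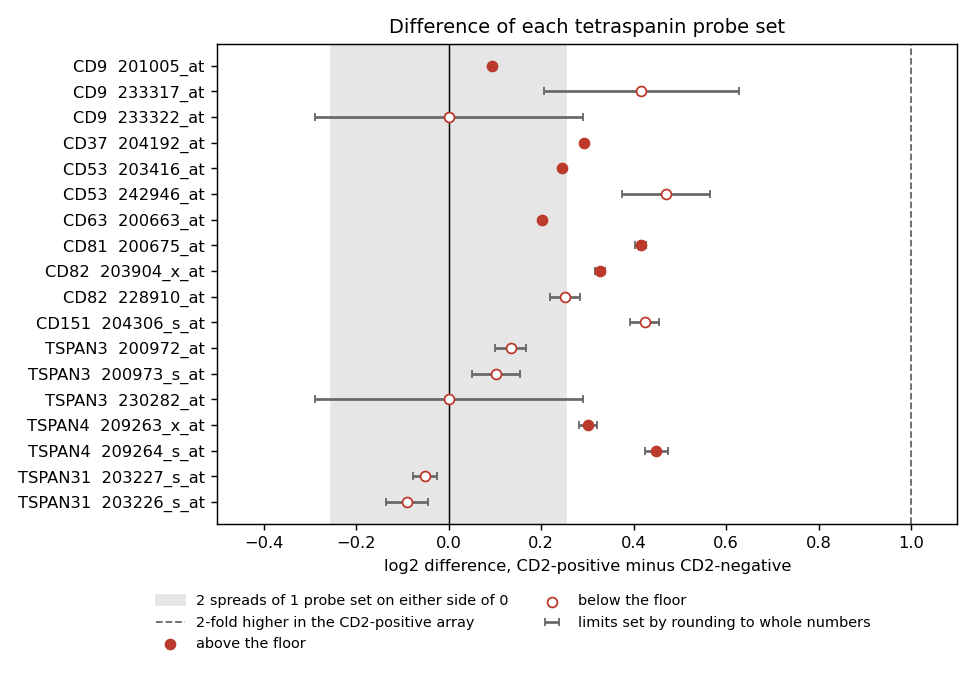
The log2 difference (CD2-positive minus CD2-negative) of the 18 tetraspanin probe sets above the Bacillus level on at least 1 array, with bars for the limits that rounding to whole numbers allows; filled points are above the floor of 64, and the grey band marks 2 spreads of a probe set (0.25) on either side of 0. The 8 filled points all lie to the right of 0 and left of the dashed 2-fold line, and both TSPAN31 points lie left of 0 in the values as deposited.

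Over all 22 probe sets 14 read higher on the CD2-positive array, 2 lower and 6 the same. The same shares over all probe sets of the array were not computed. By gene and with no floor, 29.8% of 19775 genes had a positive difference. The 2 lower tetraspanin probe sets were both of TSPAN31. Of the 6 tetraspanin probe sets with equal values, 4 read 2 on both arrays and the others 5. No probe set assigned to a member was also assigned to another gene, and none was found under a former symbol only. Among the 8 probe sets above the floor, which belong to 7 genes, all differences were positive, beside 41.9% of the genes compared.

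**Figure D3:**
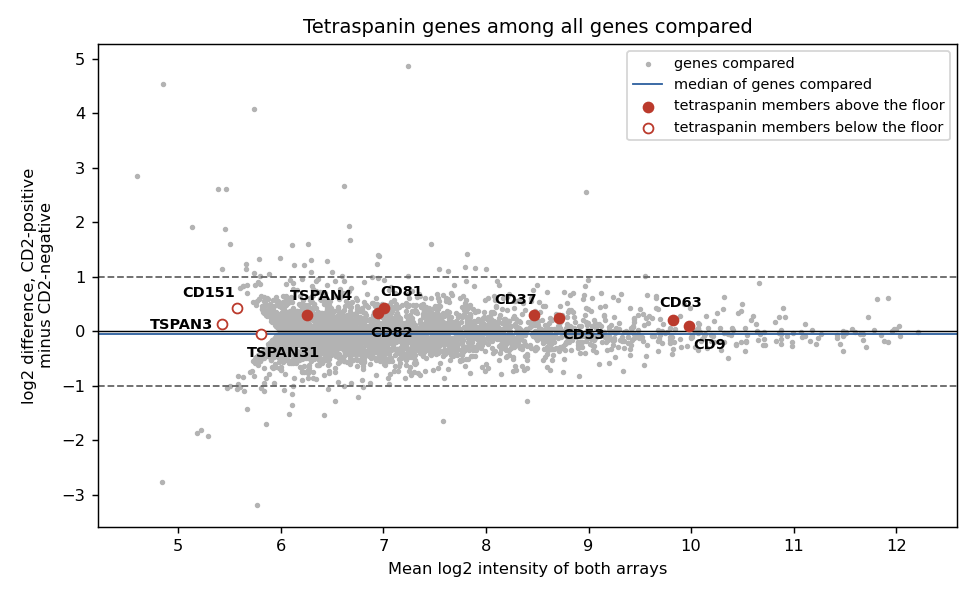
Mean log2 intensity of both arrays against the log2 difference for the 3564 genes compared (grey), with the 7 tetraspanin members above the floor (filled) and the 3 below it (open); dashed lines mark 2-fold. The 7 filled points lie inside the dense band of genes, between 0.09 and 0.42, and 9 of all 10 members lie above both 0 and the median of -0.05.

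Several members lie close together in the genome, and the genes around each member were looked at beside it. CD81, CD82, CD151 and TSPAN4 are all on chromosome 11. CD151 and TSPAN4 are separated by a single protein-coding gene, POLR2L, and the tetraspanin genes TSPAN32 and TSPAN18 are next to CD81 and CD82. For each member the median difference was taken over up to 10 compared genes on each side. These medians were 0.22 for CD151, 0.21 for TSPAN4, 0.15 for CD81 and 0.09 for CD82. In the same order, 13 of 16, 13 of 17, 14 of 20 and 14 of 20 neighbours were positive, beside 41.9% of all genes compared. CD151 and TSPAN4 share 15 neighbours, so their medians are not independent. The neighbours of CD151, TSPAN4 and CD81 include the 3 related genes IFITM1, IFITM2 and IFITM3 and other members. Without those genes the medians were 0.18 for CD151 (11 genes), 0.12 for TSPAN4 (13 genes) and 0.11 for CD81 (16 genes). CD37 on chromosome 19 also had a neighbour median above the overall one, at 0.18, and the medians around CD9, TSPAN31 and TSPAN3 were 0.08, 0.02 and 0.01. CD53 on chromosome 1 differed from its surroundings most, at 0.24 against a neighbour median of -0.16 with 5 of 20 neighbours positive, followed by CD81 (0.42 against 0.15) and CD63 (0.20 against -0.05). Set against their neighbours' median, the members ran from 0.07 below it for TSPAN31 to 0.40 above it for CD53, and CD9 lay 0.01 above it. How often other genes lie above their neighbours' median was not computed. The part of chromosomal position in these values was not tested.

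**Figure D4:**
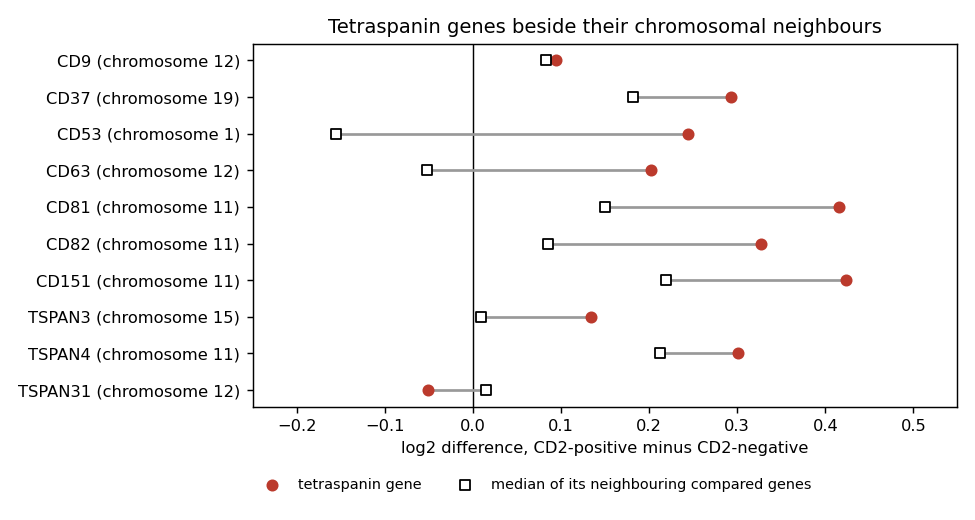
The log2 difference of each tetraspanin gene (red) and the median over its nearest compared genes, up to 10 on each side (open square), 1 array per subclone. The line between them is shortest for CD9 and longest for CD53, and the squares of CD151 and TSPAN4 lie at 0.22 and 0.21.

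The rest of the tetraspanin family was dim on both arrays. Of 23 other family members 22 were measured, none reached the floor, and 11 were at or below the Bacillus level on both arrays. The brightest was TSPAN6 at 28 against 35, and TSPAN14, which guides the protease ADAM10, read 28 against 17. TSPAN32, next to CD81, read 17 and 14, and TSPAN18, next to CD82, read 4 on both arrays. Among all tetraspanins measured, the floor was reached by the 7 members named above and by no other.

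Known partners of tetraspanins had small differences of mostly the same sign. Of 38 listed genes 36 were measured and 16 lay above the floor. Of these 16, 13 read higher (41.9% of all genes compared did) and 3 lower on the CD2-positive array. None of the 16 was 2-fold apart, and their median was 0.17, beside -0.05 for all genes compared. CD44 counted as higher by its brightest probe set (0.04), while its 7 probe sets above the floor ranged from -0.49 to 0.04. Centred on the hybridisation controls all 16 were positive (69.2% of all genes compared were), with a median of 0.36 beside 0.14. The farthest from 0 above the floor was FCER1G, the gamma chain shared by Fc receptors, at 390 against 262 (1.49-fold). Its probe sets above the floor had log2 differences of 0.57 and 0.59. FCER1A, below the floor, read 27 against 8. ITGB1, the beta-1 integrin partner of CD9, CD81 and CD151, read 453 and 397 (0.19). Of the integrin alpha chains that pair with ITGB1, only ITGA3, ITGA4 and ITGA6 were listed, and they read 2 to 4, below the floor. ADAM10, the protease moved and held by a subgroup of tetraspanins, read 274 and 231 (0.25), and IGSF3, of the immunoglobulin-type family that holds the CD9 and CD81 partners, 132 and 108 (0.29). IGSF8 and PTGFRN of that family lay below the floor, at 11 on both arrays and at 5 against 12. The interferon-induced IFITM1, IFITM2 and IFITM3, of which IFITM1 is a partner of CD81 on B cells, had differences of 0.21, 0.29 and 0.22. They are close in sequence and lie together on chromosome 11, and how far their probe sets respond to each other was not tested.

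Genes for CD63 trafficking, late endosomes and exosomes went both ways. Of 34 listed genes 33 were measured and 20 lay above the floor. Of these 20, 12 read higher (41.9% of all genes compared did) and 8 lower, with none 2-fold apart. Their median was 0.08 and their mean -0.04, of opposite sign. Centred on the hybridisation controls 15 read higher (69.2% of all genes compared did) and 5 lower, with a median of 0.26 and a mean of 0.15. By the brightest probe set of each gene above the floor, VAMP7, a vesicle fusion protein of late endosomes, was farthest from 0. It read 197 against 327 (1.66-fold lower in the CD2-positive subclone). LAMP2, a lysosomal membrane protein, read 124 and 178 (-0.52, with its 3 probe sets above the floor between -0.75 and -0.52), and RAB27B, a GTPase of granule and exosome release, 66 and 101 (-0.61). Neighbours of these 3 genes had medians of -0.33, -0.51 and -0.38. SDCBP, which encodes syntenin and binds the tail of CD63, read 1134 and 1031 (0.14), TIMP1, a secreted ligand of CD63, read 1657 and 1514 (0.13), and LAMP1 read 277 and 268 (0.05). The values of the last 3 genes, like that of CD63, were slightly higher on the CD2-positive array. HGS and STAM, which sort cargo into endosomes, read 155 against 115 (0.43) and 126 against 91 (0.47). LAMP3, below the floor, read 7 against 26.

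Enzymes that add or remove palmitate had a median close to 0 in the values as deposited, over genes that went both ways. Of 8 listed genes, all measured, 5 lay above the floor. Of these 5, 2 read higher (41.9% of all genes compared did) and 3 lower, with a median of -0.03 and a mean of 0.07. The median turned to 0.00 with a lowess correction on mean level and to 0.15, with all 5 positive, when centred on the hybridisation controls. With that centring 69.2% of all genes compared were positive. LYPLA2, a depalmitoylating enzyme, was farthest from 0 at 67 against 55 (0.28), followed by ZDHHC20, a palmitoylating enzyme, at 88 against 73 (0.27). ZDHHC2, known to palmitoylate CD9 and CD151, did not reach the floor.

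**Figure D5:**
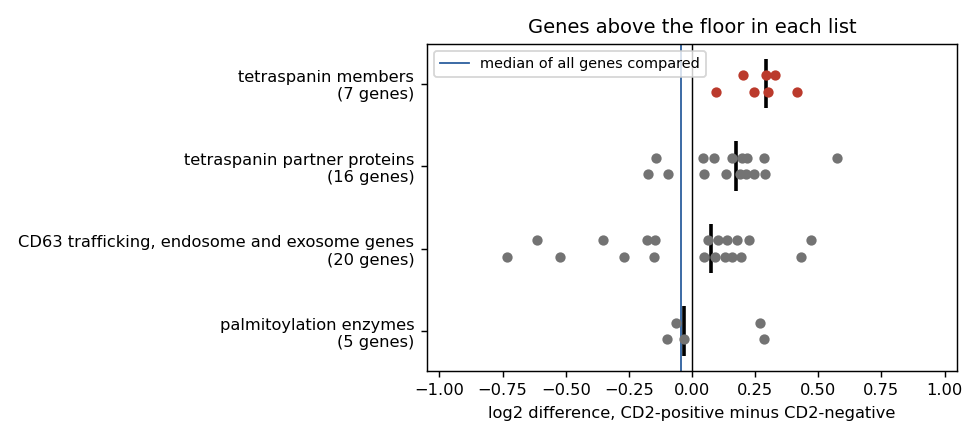
The log2 difference of every gene above the floor in 4 lists, with the black line at each list's median and the blue line at the median of all genes compared (-0.05), 1 array per subclone. The 7 tetraspanins lie between 0.09 and 0.42, whereas the trafficking genes spread from -0.73 to 0.47 on both sides of 0.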

How the data were processed

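The submitters' processing notes name RMA and Affymetrix Expression Console 1.1 for the intensity values that the authors deposited. They are whole numbers on a linear scale, as seen in the values; the sources used here do not give the background method, which bears on dim probe sets. Quantile normalisation within RMA removes overall differences between arrays. Intensities were converted to log2. Gene names came from the platform annotation, updated by Entrez identifier from the RefSeq gene table of GRCh38 (used for names and gene order only, as the files name no build); 41097 probe sets carried 1 gene, 1801 several and 11777 were not named. The probe set brightest on average over both arrays stood for its gene. Genes were compared where the higher array reached log2 6, and called at 2-fold. With 1 array per group there was no test; the number of arrays limits the precision.

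The members, lists and settings were chosen with earlier results of these data known. All members were named, with CD2, and from each list the gene farthest from 0 above the floor, where any reached it. Other list genes, the neighbour comparison and the level-range comparison were added with their values known. Other settings tried were floors of log2 5, 7 or none, the mean of all probe sets, plain identifiers, centring on all probe sets or hybridisation controls, lowess on mean level (span 0.3), a pseudocount of 16, and 1.5-fold and 3-fold rules. Python 3.11.15, pandas 2.3.3 and statsmodels 0.14.6 were used.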

Additional observations from a re-analysis of the deposited data

How the results depend on the processing

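No member passed the size rule under any alternative run alone, including 1.5-fold. Every compared member above a floor of log2 6 or 7 kept a positive difference. Most settings could not turn a positive sign. Floors and fold rules leave each difference as it is, and centring on all probe sets changed none. A pseudocount cannot turn a sign, and the shift by the hybridisation controls is upward. Centring on the hybridisation controls moved all genes by 0.18: the members' median became 0.48 (all genes compared 0.14), CD9 0.28, CD37 0.48, CD53 0.43, CD63 0.38, CD81 0.60, CD82 0.51, CD151 0.61, TSPAN3 0.32, TSPAN4 0.48 and TSPAN31 0.13, the last with its sign turned; CD81 and CD151 then lay past 1.5-fold, the latter below the floor. With the mean of all probe sets, dim ones included, CD37 was 0.15, CD9 0.17 and TSPAN3 0.05, and only 4 members reached the floor. CD9 was 0.15 with lowess. CD151 exceeded CD81 as deposited but not with lowess (0.44 and 0.45) or the pseudocount (0.32 and 0.37). The members' median otherwise lay between 0.24 (plain identifiers, 5 members) and 0.33 (mean of all probe sets). The share of genes past the size rule, 1.96%, was 8.0% at 1.5-fold, 0.617% at 3-fold, 3.47% with no floor and 1.26% with the pseudocount. Higher and lower calls were 43 and 27, but 71 and 14 when centred on the hybridisation controls and 307 and 380 with no floor. No paired analysis was possible because each group has 1 array. The single array per subclone limits every value, and for dim probe sets the rounding of intensities does so too.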
